A study of Mus musculus with 64 samples.

Results

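Whole testes of Morc1tg/tg mice and of heterozygous Morc1tg/+ controls were compared by mRNA sequencing at P14.5, in the third postnatal week, an age at which the first wave of germ cells is in meiotic prophase. The comparison holds 6 libraries, 3 of Morc1tg/tg and 3 of Morc1tg/+, of the 47 RNA-Seq libraries and 64 samples of the series, and each library was made from polyA RNA of 1 mouse. The study asked which genes and transposons are kept silent by MORC1, a protein of male germ cells with a GHKL ATPase domain. Both genotypes carry at least 1 copy of the Morc1tg allele on the FVB/N background, a tyrosinase transgene inserted in Morc1 that removes exons 2 to 4, and Morc1tg/tg males are infertile. No Morc1+/+ animal was sequenced at P14.5, and since the study drew its heterozygous controls from the litters of the homozygotes, libraries of both genotypes may share litters, which the labels do not name. All 6 libraries were labelled whole testis, and a lower value in bulk tissue can mean fewer cells of a type or less RNA per cell, which cannot be told apart here.

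In the testis, spermatogonia divide on the wall of the seminiferous tubule, enter meiosis in response to retinoic acid, and pass through leptotene, zygotene and pachytene, when homologous chromosomes break, pair and recombine along the synaptonemal complex and the X and Y are silenced in the sex body. Pachytene spermatocytes already transcribe many genes of the later sperm, such as those of the flagellum and acrosome. Sertoli cells nurse the germ cells inside the tubule, and Leydig cells, peritubular cells, vessels and macrophages lie outside it.

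The segment lost from the Morc1tg allele spans the exons that are shown here. The allele also carries the inserted transgene, and effects of the loss and of the insertion cannot be told apart. On mm9 they lie on the plus strand at chr16:48437388-48437441 (exon 2), chr16:48442518-48442552 (exon 3) and chr16:48446426-48446494 (exon 4) of a gene of 27 exons, with exon letters in capitals and the first intron letters on each side in lower case. Together they hold 158 bases, which leaves a remainder of 2 after division by 3.
exon 2: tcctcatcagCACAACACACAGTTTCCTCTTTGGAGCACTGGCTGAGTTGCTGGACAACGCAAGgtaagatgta
exon 3: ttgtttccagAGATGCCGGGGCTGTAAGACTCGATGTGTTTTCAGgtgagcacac
exon 4: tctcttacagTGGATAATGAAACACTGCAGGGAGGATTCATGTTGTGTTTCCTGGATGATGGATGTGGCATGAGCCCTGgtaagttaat

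Morc1 itself measured 8.28, 7.73 and 8.77 RPKM (reads scaled to gene length and to the mapped reads of the library) in the Morc1tg/+ libraries and 3.49, 2.63 and 3.01 RPKM in the Morc1tg/tg libraries. Each tg/tg library lay below each control, in the direction of its label, with a log2 fold change of -1.43 (SE 0.11, edgeR adjusted p = 0.000102). The counts cover the whole gene, so exons outside the lost segment still gave reads in tg/tg. Tyr, the tyrosinase gene, whose reads can come from the endogenous copy or the transgene, measured 2.38, 1.67 and 2.83 RPKM in Morc1tg/+ and 1.40, 1.33 and 1.22 RPKM in Morc1tg/tg (log2 fold change -0.79, SE 0.19, edgeR adjusted p = 0.0138).

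The libraries held 22509570 to 27325926 reads on genes, and 15283 of the 26385 listed genes had enough reads to be tested. At an edgeR adjusted p under 0.05, 5323 genes (34.8%) differed between genotypes, 3066 of them lower (20.1%) and 2257 higher (14.8%) in Morc1tg/tg. The falls were deeper than the rises. Among the lower genes, 730 fell at least 2-fold, 294 at least 4-fold and 85 at least 16-fold, while among the higher genes 98, 23 and 7 rose by as much. Without any test, the RPKM values of the groups did not overlap in 7529 genes (49.3%), in 4323 of which all tg/tg libraries lay below (28.3%). RPKM are shares of each library, so a large loss from one class of transcripts raises the others. Another scaling, chosen after seeing the data, used genes at least 2-fold higher in whole testis than in sorted germ cells at P10.5. These are called somatic genes here, though they need not be low in germ cells. The median ratio of sorted germ cells to testis was 0.59 over 13374 genes, close to that cut. Under this scaling the same counts gave 5784 calls (37.8%), 4797 lower (31.4%) and 987 higher (6.46%). The higher share of calls went from 42.4% to 17.1%, and the median log2 fold change of all genes went from 0.01 to -0.11. The medians of the 12 meiotic lists were below 0 under both scalings, and counts under the second are given beside the germ cell, stress and somatic lists with more rises than falls. Every list count below is to be read against 20.1% lower and 14.8% higher of all genes, or 31.4% and 6.46% when scaled on somatic genes. None of the rises named for single genes turned to a fall under it, and those of Gfra1, Krt8, Krt18, Cldn11, Fdft1, Dnmt3a, Trp53 and Npc2 no longer passed the test.

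Among the 294 genes that fell at least 4-fold, Morc1tg/+ replicate 2 was the lowest control in 281 and Morc1tg/+ replicate 3 the highest in 282. The control animals thus differed in level among these genes in a shared order, and all 294 still had every tg/tg library below every control. Of these 294 genes, 248 averaged under 1 RPKM in Morc1tg/+ testis at P10.5.

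Of the 12 meiotic lists, that of meiotic entry had the median nearest to 0. Of its 22 tested genes, which include the retinoic acid pathway, 5 fell and 3 rose, with a median log2 fold change of -0.11, shares near the 20.1% lower and 14.8% higher of all genes. Scaled on somatic genes, 9 fell and 2 rose, against 31.4% lower and 6.46% higher of all genes. Stra8, the retinoic acid target that starts meiosis, measured 67.3, 66.8 and 61.6 RPKM in Morc1tg/+ and 48.8, 43.0 and 33.1 RPKM in Morc1tg/tg, a log2 fold change of -0.64 (SE 0.12, edgeR adjusted p = 0.00342) without overlap. The meiotic cohesin Rec8 fell by 0.50. Ythdc2, an RNA helicase needed to leave the mitotic programme, fell by 1.00, and the retinoic acid receptor Rarb rose by 1.34.

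Structural genes of the synaptonemal complex fell together. Of 27 tested genes for the synaptonemal complex, the HORMA proteins, meiotic cohesin and the telomere tethers, 21 fell and none rose (median -0.94), against 20.1% of all genes lower. Sycp3, a rod of the chromosome axis, measured 137, 120 and 168 RPKM in Morc1tg/+ and 34.9, 33.2 and 28.2 RPKM in Morc1tg/tg. The groups were far apart, with a log2 fold change of -2.13 (SE 0.14, edgeR adjusted p = 5.05e-05). Hormad1, which marks unsynapsed axes, measured 110, 91.1 and 136 RPKM against 26.6, 24.8 and 22.4 RPKM (log2 fold change -2.19). Sycp1, the transverse filament, fell by 1.87, Sycp2 by 2.01 and Hormad2 by 1.80. The cohesin subunit Smc1b fell by 0.94 and the central element gene Syce1 fell by 0.90.

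Recombination genes fell from the making of breaks to the choice of crossovers. Of 42 tested members, 30 fell and none rose (median -0.71), against 20.1% of all genes lower. Spo11, the enzyme that breaks the chromosomes, measured 5.81, 4.41 and 7.38 RPKM in Morc1tg/+ and 1.10, 0.932 and 0.883 RPKM in Morc1tg/tg (log2 fold change -2.58). Dmc1, the meiotic strand exchange recombinase, measured 40.0, 36.1 and 44.3 RPKM against 13.7, 12.1 and 11.7 RPKM (log2 fold change -1.67). In both genes every tg/tg library lay below every control. The MutS homologues that stabilise crossover intermediates fell, with log2 fold changes of -2.29 for Msh4 and -1.61 for Msh5, and the helicase Hfm1 fell by 2.88. Cntd1, needed to turn intermediates into crossovers, had the deepest fall of the list, from 13.8, 9.33 and 17.5 RPKM to 0.763, 0.919 and 0.701 RPKM (log2 fold change -4.08, SE 0.26, edgeR adjusted p = 5.14e-05). Prdm9, which places the breaks, fell by 0.84, and the crossover nuclease partner Mlh3 by 0.32.

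Sex body and pachytene genes fell too. In the list of the sex body and of meiotic silencing, 19 of 25 genes fell and none rose (median -0.47), among them the checkpoint kinase Atr (log2 fold change -1.40), the adaptor Mdc1 (-1.35) and the histone variant H2afx (-0.99). The Y-linked zinc finger genes Zfy1 and Zfy2 fell by 1.77 and 1.74, and as near-identical copies they may lose reads under unique mapping. In the list of pachytene regulators, 30 of 37 fell and none rose (median -0.86). The heat shock protein Hspa2, needed to end meiotic prophase, measured 105, 79.6 and 133 RPKM in Morc1tg/+ and 25.4, 25.6 and 22.7 RPKM in Morc1tg/tg (log2 fold change -2.10). Ybx2, which binds stored mRNA, measured 93.8, 60.2 and 114 RPKM against 12.4, 10.8 and 10.6 RPKM (log2 fold change -2.98). Both fell without overlap. Of the transcription factors in this list, Mybl1 (A-MYB) fell by 0.67, Crem by 1.24, Sox30 by 1.95 and Rfx2 by 2.14, while Ovol2 did not pass the test. Of the germ cell histones and chaperones 11 of 15 fell and none rose (median -0.89).

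**Figure D1:**
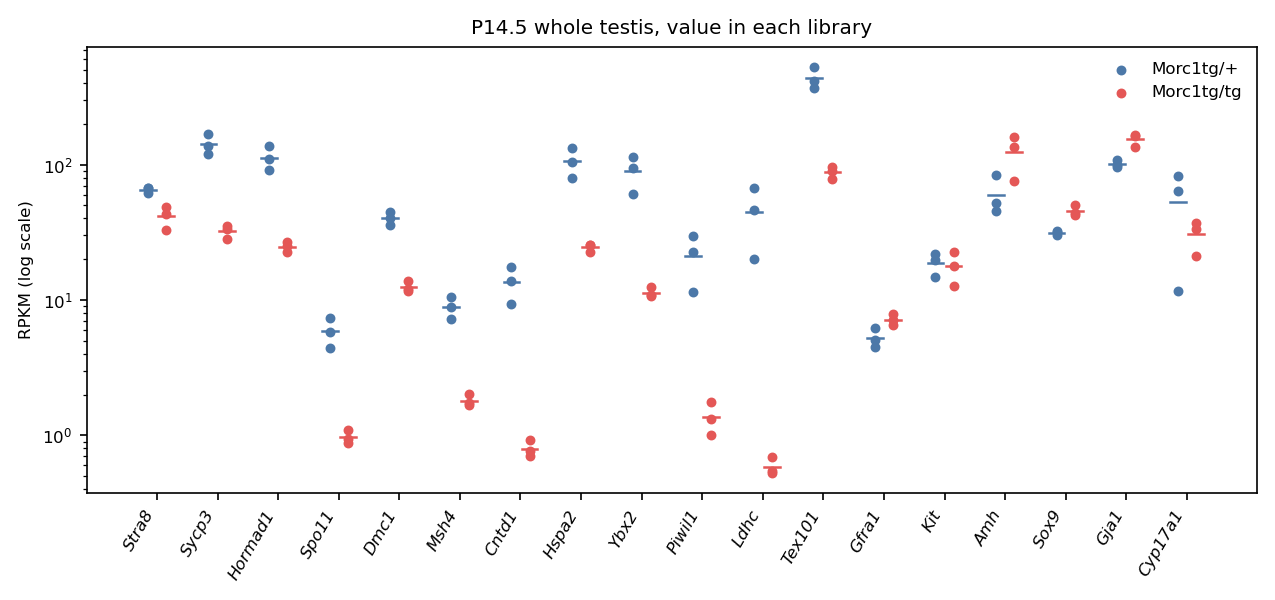
RPKM on a log axis in each of the 6 P14.5 libraries for 18 genes ordered from meiotic entry to somatic cells, with points for libraries and bars for group means. The tg/tg points of Spo11, Cntd1, Piwil1 and Ldhc lie far under the controls, those of Kit and Cyp17a1 overlap them, and those of Sox9 and Gja1 lie above them.

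The axoneme and acrosome lists had the lowest medians of all 35. Of 72 tested axoneme and flagellum genes, 54 fell and none rose (median -1.40), and of 25 tested acrosome, zona binding and sperm surface genes, 22 fell and none rose (median -2.30). Of all genes 20.1% fell. Only 25 of the 46 acrosome members in the data, and 72 of 80 axoneme members, had enough reads to be tested. The filter admitted genes through the controls alone, such as Catsperb (mean 0.317 against 0.00343 RPKM), which can deepen these medians. Zmynd10, which assembles dynein arms, measured 17.0, 7.66 and 20.3 RPKM in Morc1tg/+ and 0.288, 0.201 and 0.370 RPKM in Morc1tg/tg. The lowest control thus stood far above the highest tg/tg library (log2 fold change -5.70, SE 0.46, edgeR adjusted p = 0.000105). The radial spoke gene Rsph1 measured 90.2, 62.5 and 120 RPKM against 11.9, 12.1 and 9.20 RPKM (log2 fold change -3.03), and the tektin Tekt1 fell by 3.15. Adam2, a fertilin subunit of the sperm surface, measured 9.05, 4.09 and 12.2 RPKM against 0.0795, 0.0693 and 0 RPKM (log2 fold change -7.31). Tex101, a surface protein of germ cells, was the most abundant member of its list per length, at 415, 368 and 523 RPKM in Morc1tg/+ and 96.1, 89.6 and 78.3 RPKM in Morc1tg/tg (log2 fold change -2.30).

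Of the spermatid list 18 of 29 members had too few reads to be tested, protamines among them, and 4 of the 11 tested fell (median -0.62), against 20.1% of all genes. One of these, Odf4 of the outer dense fibres, measured 4.77, 2.23 and 6.02 RPKM in Morc1tg/+ and 0.0595, 0 and 0.0674 RPKM in Morc1tg/tg (log2 fold change -6.56). Of 27 tested Tex and Spata genes, named for the testis, 18 fell and none rose (median -0.53), the deepest being Spata4 (log2 fold change -6.52).

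The list of germ cell isoforms of metabolic enzymes also holds general enzymes such as Gpi1 and Tpi1. Of its 29 tested genes, 14 fell and 3 rose (median -0.33), against 20.1% lower and 14.8% higher of all genes, or 15 and 1 when scaled on somatic genes. The rises were Acsbg1 (0.28), Elovl2 (0.39) and Glrx2 (0.49). Ldhc, the lactate dehydrogenase of spermatocytes and sperm, measured 46.0, 20.2 and 67.3 RPKM in Morc1tg/+ and 0.541, 0.695 and 0.530 RPKM in Morc1tg/tg. Its log2 fold change was -6.23 (SE 0.53, edgeR adjusted p = 0.000124), with Morc1tg/+ replicate 2 again the lowest control. The glycerol kinase paralogue Gk2 fell from 439 reads over the controls to 3 reads over the tg/tg libraries, a ratio of reads scaled to library size of 140 with an exact 95% counting interval of 47.7 to 683. A close relative, Gykl1, had no read in any tg/tg library, which is lower by at least 49.8-fold when the tg/tg group is set to 3 reads. The germ cell subunits Cox8c (log2 fold change -3.67), Cox6b2 (-2.46) and Pdha2 (-2.45) of mitochondrial complexes fell as well.

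The piRNA pathway, which makes small RNAs against transposons, held 25 falls and no rise among 31 tested genes (median -0.69). Piwil1 (MIWI), the PIWI protein of pachytene, measured 22.6, 11.4 and 29.6 RPKM in Morc1tg/+ and 1.75, 1.01 and 1.32 RPKM in Morc1tg/tg (log2 fold change -3.95, SE 0.36, edgeR adjusted p = 0.000157). Its partner Tdrd6 fell by 4.05. Proteins that act already before pachytene fell less, the PIWI protein Piwil2 (MILI) by 1.02, Mov10l1 by 1.25, Mael by 0.98 and Tdrd1 by 0.67. Some of these also stand in the list of germ cell identity, in which 12 of 13 tested genes fell and none rose (median -0.89), led in level by Dazl at 240, 226 and 266 RPKM in Morc1tg/+ and 145, 134 and 126 RPKM in Morc1tg/tg (log2 fold change -0.85).

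**Figure D2:**
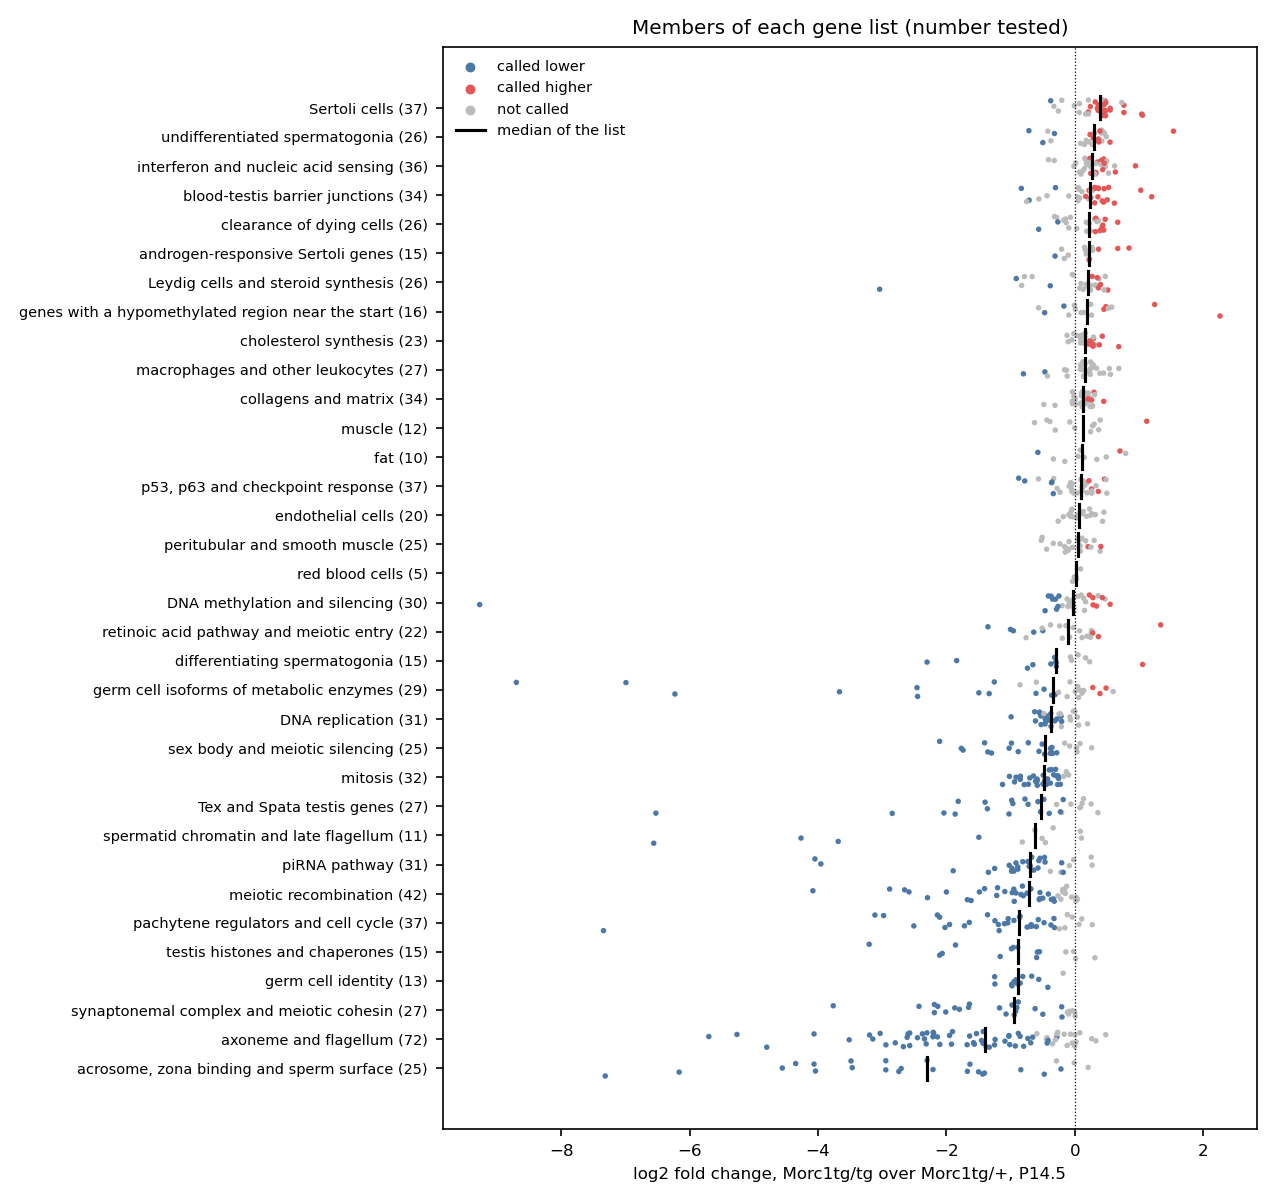
Log2 fold change of Morc1tg/tg over Morc1tg/+ at P14.5 (horizontal axis) for each tested member of the lists with at least 5 tested members, coloured by call, with the list median as a black bar. The median bars of the acrosome and axoneme lists stand furthest left, single points of the silencing (-9.27), metabolic (-8.70) and pachytene (-7.34) lists lie further out than any of theirs, and the synaptonemal complex, recombination, piRNA and mitosis lists hold no red point.

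Promoter letters were counted as a description of sequence, for MYB, RFX and CRE, motifs of factors known in spermatocytes. In the RefSeq windows from 250 bases before to 50 after the start (GRCm38.p6), which matched 8537 of the 15283 tested genes, the MYB letters AACNGNC on either strand stood in 32.8% of all tested genes, in 56.6% of 145 genes that fell at least 4-fold and in 28.8% of 1277 genes that rose. The RFX letters GTTGCC stood in 12.8%, 31.7% and 11.1% of the same sets, and the CRE letters TGACGTCA in 3.15%, 2.07% and 2.90%. Of 31 axoneme genes with a window, 71.0% held the MYB and 48.4% the RFX letters, against 31.8% and 4.55% of 22 Sertoli genes. For 18 synaptonemal complex genes the shares were 33.3% for each motif, for 26 recombination genes 46.2% for MYB and 11.5% for RFX, and for 14 piRNA genes 50.0% and 21.4%, so that MYB in the synaptonemal complex list and RFX in the recombination list were near the share of all tested genes. Over all 22862 RefSeq promoters with 1 window these shares were 32.7% for MYB, 12.7% for RFX and 1.85% for CRE. MYB and RFX matches shared letters in 5 of the 145 genes. No binding was measured, and a match is no site. The 200 bases before the start are printed for Piwil1, Cntd1 and Spata4, chosen after their values were seen as deep falls from the piRNA, recombination and testis lists, with MYB matches and the RFX match that ends the Spata4 line in capitals. They lie on the plus strand of GRCm38.p6 at chr5:128736046-128736245, chr11:101279003-101279202 and chr8:54600581-54600780.
Piwil1: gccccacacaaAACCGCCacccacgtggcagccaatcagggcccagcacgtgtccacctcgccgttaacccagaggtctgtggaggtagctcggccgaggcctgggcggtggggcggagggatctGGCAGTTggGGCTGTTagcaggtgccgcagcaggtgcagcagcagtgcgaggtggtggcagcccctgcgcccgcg
Cntd1: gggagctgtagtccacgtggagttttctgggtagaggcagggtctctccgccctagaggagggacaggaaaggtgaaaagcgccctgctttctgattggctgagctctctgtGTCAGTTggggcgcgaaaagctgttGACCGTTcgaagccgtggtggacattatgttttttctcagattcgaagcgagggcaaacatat
Spata4: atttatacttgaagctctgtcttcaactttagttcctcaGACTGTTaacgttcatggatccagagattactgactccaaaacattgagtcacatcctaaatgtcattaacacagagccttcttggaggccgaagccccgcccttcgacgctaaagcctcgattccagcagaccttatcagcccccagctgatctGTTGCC

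Spermatogonia were looked at by stage. Of 26 tested genes of undifferentiated spermatogonia, 8 rose and 3 fell (median 0.30), against 14.8% and 20.1% of all genes. Scaled on somatic genes, however, 1 rose and 3 fell. The rise that held was Shisa6, a gene of undifferentiated spermatogonia, at 0.674, 0.979 and 0.642 RPKM in Morc1tg/+ and 1.77, 2.89 and 1.96 RPKM in Morc1tg/tg (log2 fold change 1.54, SE 0.23, edgeR adjusted p = 0.00125). Gfra1, the GDNF receptor of stem cells, measured 5.06, 6.23 and 4.52 RPKM against 7.07, 6.57 and 7.87 RPKM (log2 fold change 0.45), while Id4 fell by 0.71. Of 15 tested genes of differentiating spermatogonia, 9 fell and 1 rose (median -0.29). The deepest falls were Tex101 (log2 fold change -2.30), counted also as a sperm surface gene, and Prss50 (-1.84). At P10.5, 13 of the 15 were lower and 1 higher (median -0.67). The difference between the ages passed the test for 5 with a higher and 1 with a lower effect at P14.5. Kit, the receptor that marks differentiating spermatogonia, overlapped between groups at P14.5. It measured 21.8, 19.6 and 14.9 RPKM in Morc1tg/+ and 22.7, 12.8 and 17.9 RPKM in Morc1tg/tg, and did not pass the test (edgeR adjusted p = 0.809).

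Dividing-cell genes fell by modest amounts. Of 32 mitosis genes, 29 fell and none rose (median -0.48), and of 31 DNA replication genes, 20 fell and none rose (median -0.37). Of all genes 20.1% fell. Top2a, the topoisomerase that untangles chromosomes before they part, measured 96.6, 83.8 and 96.3 RPKM in Morc1tg/+ and 53.6, 38.6 and 43.9 RPKM in Morc1tg/tg (log2 fold change -1.02). The replicative helicase subunit Mcm5 measured 58.6, 58.8 and 56.3 RPKM against 45.0, 35.2 and 38.7 RPKM (log2 fold change -0.54). Neither overlapped.

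Among silencing genes the largest change was in a relative of Morc1. Morc2b, a Morc paralogue on chr17:33272533-33276628 (mm9), gave 1490 reads over the Morc1tg/+ libraries and 2 over the Morc1tg/tg libraries. The controls stood at 4.34, 2.76 and 6.35 RPKM and the tg/tg libraries at 0.0174, 0 and 0 RPKM, a ratio of reads scaled to library size of 714 with an exact 95% counting interval of 197 to 5900. At P10.5 its mean in Morc1tg/+ testis was 0.00395 RPKM, too low to test. Of the 30 tested genes for DNA methylation and silencing, 9 fell and 6 rose (median -0.03), against 20.1% and 14.8% of all genes, or 13 and 3 when scaled on somatic genes. The de novo methyltransferase Dnmt3a rose by 0.29 and the demethylating enzyme Tet2 by 0.55, whereas Uhrf1, the partner of maintenance methylation, fell by 0.46. Dnmt3l overlapped between groups (0.533, 0.528 and 0.506 RPKM against 0.871, 0.524 and 0.609 RPKM). Of 16 tested genes that the study listed for a hypomethylated region near the start, 4 rose and 2 fell (median 0.20), against 14.8% and 20.1% of all genes. The study found these regions in sorted germ cells of younger mutant mice, not in these testes. Tmc2 rose by 2.26 and Neb by 1.25. The study already reported increased expression of both, so neither is independent evidence. It reported the same for Cdkl4, which was not among the 4 rises here. The others were Kat2b (0.45) and Dlg2 (0.49).

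Stress responses were looked at with lists for p53 and for interferon. Of 37 tested genes of the p53, p63 and checkpoint response, 5 fell and 4 rose (median 0.09), against 20.1% and 14.8% of all genes. Scaled on somatic genes, 7 fell and 1 rose. Cdkn1a (p21), a p53 target that stops the cell cycle, fell by 0.87, while the death effector Bak1 rose by 0.46. Trp53 itself rose by 0.26, a call that was lost when scaled on somatic genes. Of 36 tested interferon and nucleic acid sensing genes, 10 rose and none fell (median 0.27), against 14.8% of all genes higher, 4 of the 10 calls were kept in every fit with 1 library left out, and 5 rose and none fell when scaled on somatic genes. The cytosolic DNA sensor Aim2 rose by 0.95, the RNA sensor Tlr3 by 0.63 and the interferon kinase Eif2ak2 (PKR) by 0.46. Of the members that interferon induces strongly, Isg15 (log2 fold change 0.16), Irf7 (-0.32), Oasl2 (-0.41) and Ifit3 (0.53) did not pass the test, and Ifit1, Mx1 and Cxcl10 had too few reads to be tested.

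Many Sertoli cell genes rose. Of 37 tested, 24 rose and 1 fell (median 0.39, against 0.01 and 14.8% higher over all genes), and 15 rose and 1 fell when scaled on somatic genes. Sox9, a transcription factor of Sertoli cell fate, measured 31.7, 32.1 and 30.3 RPKM in Morc1tg/+ and 44.1, 50.7 and 42.2 RPKM in Morc1tg/tg, all tg/tg above all controls (log2 fold change 0.55, SE 0.08, edgeR adjusted p = 0.000872). Gdnf, the Sertoli signal to spermatogonial stem cells, measured 2.52, 2.48 and 2.65 RPKM against 3.41, 4.26 and 5.25 RPKM (log2 fold change 0.77). Amh, a hormone of immature Sertoli cells that falls as they mature, measured 45.2, 83.3 and 51.7 RPKM against 75.7, 134 and 161 RPKM. Its groups overlapped, and the log2 fold change was 1.05 (SE 0.29, edgeR adjusted p = 0.0218). The keratins Krt8 and Krt18, also of immature Sertoli cells, rose by 1.04 and 0.77. Of 15 tested androgen-responsive Sertoli genes, 4 rose and 1 fell (median 0.21), or 3 and 1 when scaled on somatic genes, and 1 of the 5 calls was kept in every fit with 1 library left out.

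Junction genes of the blood-testis barrier, which Sertoli cells build around meiotic cells, held 17 rises and 3 falls among 34 (median 0.23), or 9 and 5 when scaled on somatic genes. Of all genes 14.8% rose and 20.1% fell, or 6.46% and 31.4% under that scaling. Gja1, connexin 43, measured 95.7, 107 and 99.8 RPKM in Morc1tg/+ and 135, 162 and 164 RPKM in Morc1tg/tg (log2 fold change 0.62, SE 0.09, edgeR adjusted p = 0.00118). Cldn11, the claudin of the barrier, rose by 0.32 and Cldn4 by 1.20, while the scaffold Tjp3 fell by 0.83. Of 26 genes for the clearance of dying cells, which Sertoli cells carry out, 8 rose and 2 fell (median 0.22), against 14.8% and 20.1% of all genes. Scaled on somatic genes, 6 rose and 5 fell. The TAM receptors Tyro3 (by 0.44), Mertk (by 0.43) and Axl (by 0.39) rose, as did the engulfment adaptor Gulp1 (by 0.67).

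Cell types outside the tubule came next. Of 26 tested Leydig and steroid synthesis genes, 5 rose and 3 fell (median 0.21), against 14.8% and 20.1% of all genes, or 3 and 3 when scaled on somatic genes. Cyp17a1, the enzyme that leads to androgens, spread widely among controls, at 11.6, 82.1 and 64.0 RPKM in Morc1tg/+ and 36.9, 21.2 and 33.2 RPKM in Morc1tg/tg. The groups overlapped, and no difference passed the test (edgeR adjusted p = 0.299). Cyp11b1, a hydroxylase of corticoid synthesis, was low and fell from 0.245, 0.226 and 0.307 RPKM to 0.0421, 0.0147 and 0.0318 RPKM (log2 fold change -3.04). Of 23 cholesterol synthesis genes, 9 rose and none fell (median 0.17), or 3 and 1 when scaled on somatic genes, and 3 of the 9 calls were kept in every fit with 1 library left out, with squalene synthase, Fdft1, at 0.29. Peritubular genes held 2 rises of 25 and collagens and matrix 4 of 34, with no fall in either, or 1 rise and 1 fall in each when scaled on somatic genes. Endothelial cells and red blood cells held no call among 20 and 5 tested genes. For macrophages and other leukocytes 2 of 27 fell and none rose, and Csf1r, the macrophage growth factor receptor, ran from 3.76 to 7.21 RPKM in Morc1tg/+ and from 4.01 to 9.74 RPKM in Morc1tg/tg.

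Tissue from outside the testis was checked with marker lists. Of 24 epididymis genes only 2 had enough reads to be tested, and 1 of these rose, Npc2 by 0.29. Of the fat genes 1 of 10 rose and 1 fell, and of the muscle genes 1 of 12 rose. The summed level of the fat list ran from 50.2 to 59.0 RPKM in Morc1tg/+ and from 48.2 to 70.2 RPKM in Morc1tg/tg. These ranges overlap.

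Several of the largest rises were of genes nearly silent in controls at P14.5. Reg2, a secreted lectin of the regenerating family, had no read in any Morc1tg/+ library and measured 1.37, 1.23 and 1.33 RPKM in Morc1tg/tg, which is higher by at least 26.4-fold when the controls are set to 3 reads over the group. Clec2g, a C-type lectin, gave 3 reads over the controls and 278 over the tg/tg libraries, a ratio scaled to library size of 96.7 (exact 95% counting interval 32.7 to 472). Ky, a muscle protease-like gene, measured 0.139, 0.170 and 0.128 RPKM in Morc1tg/+ and 1.98, 1.76 and 2.51 RPKM in Morc1tg/tg (log2 fold change 3.84, SE 0.20, edgeR adjusted p = 4.18e-05). The lectin receptor Cd209c measured 1.69, 1.96 and 2.16 RPKM against 12.1, 15.7 and 12.5 RPKM (log2 fold change 2.80), and Ctsh, a lysosomal cathepsin, 1.03, 0.722 and 0.831 against 3.53, 3.56 and 3.38 RPKM (log2 fold change 2.03). In each of these the groups were clear of each other. Further rises were those of BC051019 (3.54), the peptide transporter Slc15a2 (1.80), Darc (1.69), Lpcat2 (1.66), Cadm3 (1.47), Lbx2 (1.37), the EGF receptor ligand Btc (1.37) and the pigment enzyme Dct (1.28). Those of Clec2g, BC051019, Cd209c, Ctsh, Slc15a2 and Ky were also called higher at P10.5. Some of these genes were not silent in younger controls. Ky, Slc15a2, Lpcat2 and Cadm3 averaged 2.78, 2.62, 8.28 and 5.88 RPKM in Morc1tg/+ at P10.5, above their P14.5 controls. Reg2 and Clec2g measured 0 RPKM there.

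Other deep falls among genes that reached 1 RPKM in controls were Scgb2b1-ps, a secretoglobin pseudogene with no read in tg/tg (at least 45.0-fold lower), Pabpc2, a testis polyA binding protein with 225 reads in controls and 1 in tg/tg (ratio scaled to library size 216, exact 95% counting interval 38.3 to 8554), Pdcl2 (log2 fold change -6.46), the germ cell fatty acid binding protein Fabp9 (-6.21), Hrasls5 (-6.18), the gluconeogenic enzyme Fbp1 (-6.08), Heatr7b2 (-5.91) and Ptchd3 (-5.79). Fabp9 measured 55.5, 29.8 and 71.0 RPKM in Morc1tg/+ and 0.810, 0.727 and 0.525 RPKM in Morc1tg/tg. Controls ranked in the same order there as for Ldhc.

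Genes were then sorted by their level in sorted germ cells of Morc1tg/+ mice at P10.5 against whole testis of the same genotype and age, which uses no P14.5 library. The tissues were prepared with different kits, which enters this ratio. Of 830 genes at least 2-fold higher in germ cells, 315 fell (38.0%) and 39 rose at P14.5 (median -0.23). Of 5721 genes at least 2-fold higher in testis, 472 fell (8.25%) and 1672 rose (29.2%), with a median of 0.14. Scaled on somatic genes, which are by construction this last class, 969 of them fell and 757 rose. The part of a changed germ cell share in the rises and falls was not tested. By level in the younger testis, of 376 tested genes under 0.1 RPKM in Morc1tg/+ at P10.5, 166 fell (44.1%) and 29 rose. Such genes entered the test only through reads in a P14.5 group, which can raise the share called. Of 2618 genes between 0.1 and 1 RPKM there, 449 fell (17.1%) and 126 rose, and of 6812 genes at 10 RPKM or more, 1417 fell (20.8%) and 1420 rose (20.8%).

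By chromosome, X genes had a higher share of rises and a lower share of falls than autosomal genes at P14.5. At P10.5 the X had instead the higher share of falls. There 67 of 590 X genes fell and 22 rose, against 920 and 562 of 14309 autosomal genes. Of 601 tested X genes, 177 rose (29.5%) and 76 fell (12.6%), with a median log2 fold change of 0.17, and of 14673 autosomal genes, 2078 rose (14.2%) and 2985 fell (20.3%), with a median of 0.01. Scaled on somatic genes, the X held 86 rises (14.3%) and 112 falls (18.6%) and the autosomes 900 (6.13%) and 4679 (31.9%), so that the order of the shares held while more X genes fell than rose. Within the testis-higher genes, 139 of 276 on the X rose (50.4%) against 1532 of 5442 on the autosomes (28.2%), or 72 (26.1%) against 684 (12.6%) scaled on somatic genes. Within the germ-cell-higher genes, 18 of 42 on the X fell (42.9%) and 295 of 785 on the autosomes (37.6%). Genes are not independent replicates, and the difference between chromosomes was not tested. Of 9 tested Y genes, 5 fell and 2 rose, and of 34 genes within 5 Mb of Morc1, 8 fell and 4 rose.

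**Figure D3:**
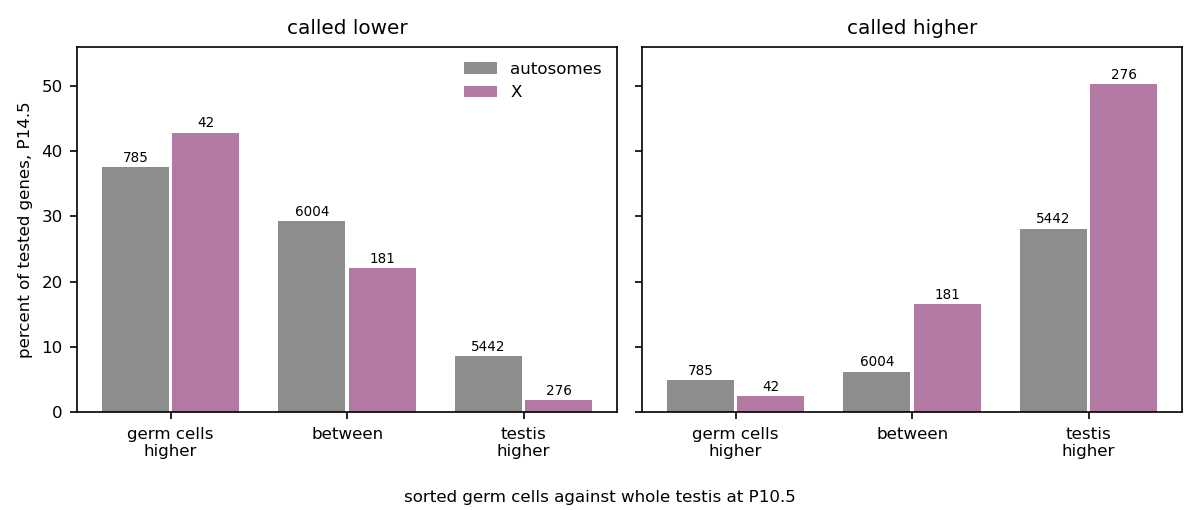
Percent of tested genes called lower (left) and called higher (right) at P14.5 on the autosomes and on the X, by class of P10.5 germ cell to testis level, with the number of tested genes over each bar. The X bar for higher calls among testis-higher genes reaches 50.4% against 28.2% on the autosomes.

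P10.5 testis, the age with the most similar comparison, was fitted in the same way from 3 Morc1tg/tg and 2 Morc1tg/+ libraries that share no animal with P14.5. There, 1576 of 15264 tested genes differed (10.3%), 991 lower (6.49%) and 585 higher (3.83%). Among 14908 genes tested at both ages, 690 were lower at both, which is 24.1% of those lower at P14.5 and 69.7% of those lower at P10.5. For higher genes the number was 257, or 11.4% and 44.0%. A fit of both ages together tested the difference of the effects, P14.5 minus P10.5, and 977 of 15849 genes passed (6.16%), 832 with a lower (5.25%) and 145 with a higher effect at P14.5 (0.915%).

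The ages differed by role. Among axoneme genes 1 of 66 tested was lower at P10.5, against 54 of 72 at P14.5, and the difference of the effects itself passed the test for 34 of 76, all lower at P14.5. Many of these genes were near the floor in P10.5 controls, such as Zmynd10 at 0.129 RPKM, though Rsph1 averaged 5.07 RPKM. Genes near the floor had little room to fall at P10.5, where only 2 Morc1tg/+ libraries entered. The difference passed for 12 of 26 acrosome genes, 15 of 37 pachytene regulators and 14 of 31 piRNA genes, lower at P14.5. Synaptonemal complex genes were low at both ages, with 19 of 26 lower at P10.5, and the difference passed for 8 of 27. Piwil1 showed it most simply, at a mean of 1.21 RPKM in Morc1tg/+ and 0.968 RPKM in Morc1tg/tg at P10.5 and a difference of the log2 effects of -3.65 (SE 0.50, edgeR adjusted p = 0.00161). Stra8 and Prdm9 ran the other way, with effects of -1.39 and -1.67 at P10.5 that were smaller in size at P14.5 (differences 0.74 and 0.82, edgeR adjusted p = 0.0275 and 0.00387), the difference of Stra8 being called in 7 and that of Prdm9 in 11 of the 11 fits with 1 library left out.

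**Figure D4:**
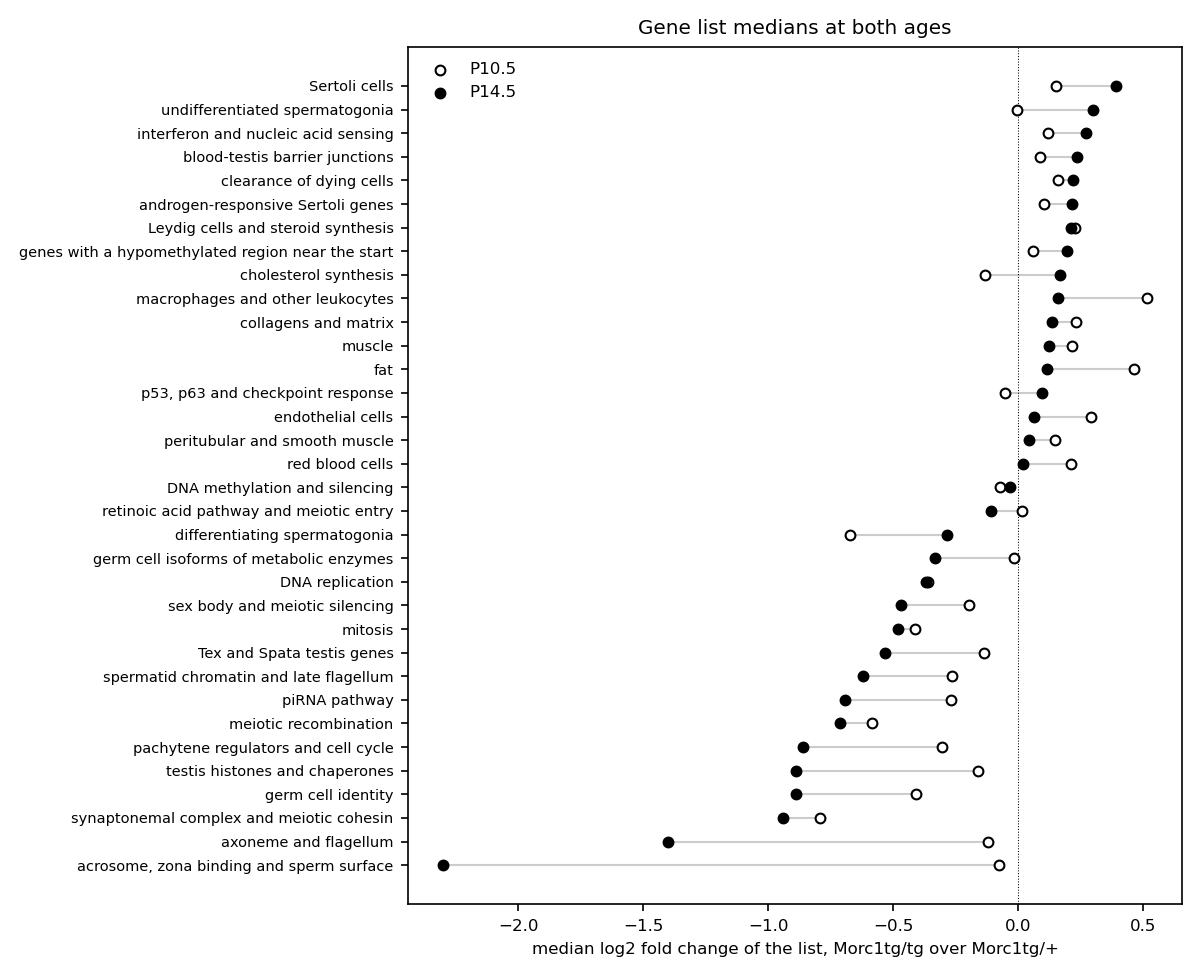
Median log2 fold change of Morc1tg/tg over Morc1tg/+ (horizontal axis) of each gene list at P10.5 (open) and P14.5 (filled), lists with at least 5 tested members. The acrosome, axoneme and testis histone lists sit near 0 at P10.5 and at -2.30, -1.40 and -0.89 at P14.5, while the synaptonemal complex list is below 0 at both ages. The acrosome medians cover 18 tested members at P10.5 and 25 at P14.5.

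Genes that fell at P14.5 were not all at the level of a younger testis. The tg/tg mean at P14.5 lay above both P10.5 Morc1tg/+ libraries for 18 of 21 synaptonemal complex genes that fell, for 22 of 30 recombination genes and for 33 of 54 axoneme genes. For 27 of 29 mitosis genes and 15 of 20 replication genes it lay below both. Over all 3066 genes that fell it lay above in 1168, between in 730 and below in 1168. Sycp3, for example, averaged 24.4 RPKM in Morc1tg/+ and 11.9 RPKM in Morc1tg/tg at P10.5, and 142 ± 24.5 (SD, n = 3) and 32.1 ± 3.47 RPKM (SD, n = 3) at P14.5.

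For somatic lists the difference between the ages passed the test in few genes other than those of cholesterol synthesis. Sertoli genes held 5 rises and 2 falls of 37 at P10.5, and the difference passed for 2, both higher at P14.5. One was Sox9 (difference 0.44, edgeR adjusted p = 0.019). Cholesterol genes held no rise and 2 falls at P10.5, and the difference passed for 7 of 23, all higher at P14.5. Matrix genes held 17 rises and 2 falls of 34 at P10.5, and macrophage genes 11 rises and no fall of 27. The difference passed for 1 matrix gene, higher at P14.5, and for no macrophage gene. Shisa6 did not pass the test at P10.5 (log2 fold change -0.05), and its effects differed by 1.57 (edgeR adjusted p = 0.00468).

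**Figure D5:**
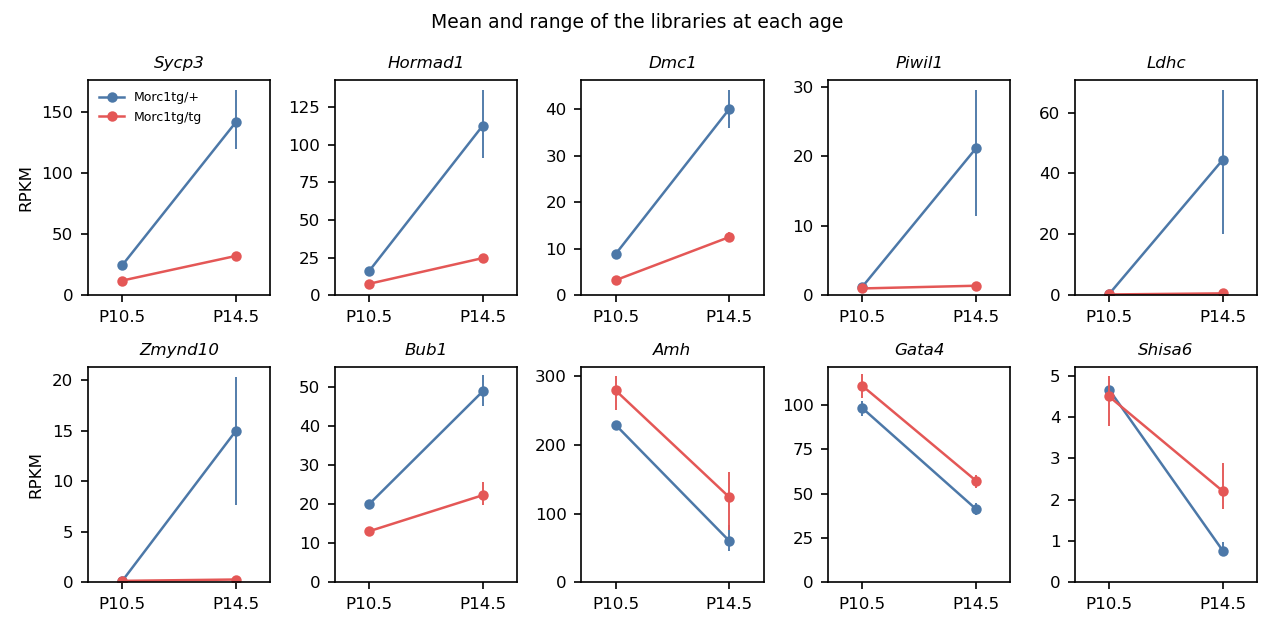
Mean RPKM of 10 genes in Morc1tg/+ and Morc1tg/tg testis at P10.5 and P14.5, with vertical bars from the lowest to the highest library. Ldhc and Zmynd10 climb between the ages in the controls and remain under 1 RPKM in tg/tg, Sycp3, Hormad1 and Dmc1 climb in both genotypes but less in tg/tg, and Amh, Gata4 and Shisa6 drop in both, with the tg/tg mean the higher at P14.5.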

How the data were processed

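RNA of whole testes was sequenced from 1 mouse per library with a polyA kit that marks no strand, so overlapping and antisense genes cannot be separated. Per the labels and methods, reads were mapped to mm9, uniquely mapped reads were counted per gene with HTSeq, and the authors deposited raw counts and RPKM for 26385 genes, 5866 of them without a read in these libraries. For gene-level reads the aligner was not given in the sources used here, and near-identical copies lose reads under unique mapping. Counts were tested here with edgeR 4.0.16 (R 4.3.3, limma 3.58.1), TMM, filterByExpr and the quasi-likelihood test, Benjamini-Hochberg adjusted over all genes tested at 0.05, with Morc1tg/tg against Morc1tg/+ of 1 age in each fit and an interaction of genotype and age for the difference. RPKM are printed as deposited. On simulated P14.5 counts of 15111 genes the edgeR script recovered 82% of 2-fold and 98% of 4-fold changes and called 15 unchanged genes. The simulation changed far fewer genes than were called here, as many up as down. It therefore does not show how the test behaves under a broad loss of transcripts. Genes named were Morc1, Tyr, up to 15 called genes each way with the largest change, no overlap and at least 1 RPKM in the higher group (5 each way for the difference), and list members. The 35 lists hold 994 different genes, of 1058 entries 994 matched by symbol, 41 by RefSeq synonym and 23 not at all, and some genes stand in several. Lists and members were chosen with earlier results of these data known, and lists got no test. Repeat families and some genes that the rule would name are not reported here. No 2 libraries were duplicates. Counting intervals and floors cover counting error only. DESeq2 1.42.0, other scalings and filters, a replicate block and leaving out each library were the alternatives.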

Additional observations from a re-analysis of the deposited data

Results flagged for a closer look

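Genes whose effect of Morc1 loss differed between P14.5 and P10.5 testis numbered 977 of 15849 by the edgeR interaction test (adjusted p under 0.05). Of the genes named, the log2 effect at P14.5 minus that at P10.5 was -7.55 for Odf4, -6.71 for Fbp1, -6.13 for Ptchd3, -5.99 for Fabp9, -5.92 for Zmynd10 and -5.70 for Ldhc. Each of these was under 1 RPKM in testis at P10.5. Odf4, Fbp1 and Zmynd10 had too few reads to be tested at P10.5 alone, so the size and order of these differences are imprecise (SE 1.69 for Odf4). Tyr had opposite effects at the ages, 0.75 at P10.5 and -0.79 at P14.5, a difference of -1.55 (edgeR adjusted p = 0.00535), where reads of the transgene and of the endogenous gene cannot be told apart. In the other direction the difference was 2.97 for Ky, 1.57 for Shisa6, 1.57 for Pde7b, 1.23 for Popdc3, 1.20 for Hrk, a regulator of cell death, and 0.95 for Slc15a2. Of these Ky (0.85) and Slc15a2 (0.83) were already called higher at P10.5. In the 11 fits that each left out 1 library, the differences of Ptchd3, Fabp9, Zmynd10, Ky and Shisa6 were called in all 11, those of Tyr in 10, of Odf4 and Ldhc in 8, of Pde7b in 7, of Popdc3 in 6, of Fbp1 and Hrk in 5 and of Slc15a2 in 4. That of Pde7b was also lost with a replicate block (edgeR adjusted p = 0.0714), and that of Tyr with the Morc1+/+ library added to the P10.5 controls (0.0768). Groups of 3 libraries were too small to look for single outlying values.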

How the results depend on the processing

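The P14.5 calls numbered 3517 to 5001 with 1 library left out, fewest without Morc1tg/+ replicate 3 (3517, against 5323 of all), and 3157 of the 5323 (59.3%) were called in each of these fits. Higher calls shrank more than lower ones without that library, to 1274 from 2257 against 2243 from 3066. None was called in the other direction in any setting run. Other settings gave 5051 (replicate block) to 6219 (spread over both ages). The Morc1 log2 fold change ran from -1.51 to -1.34, and 12 of 12 meiotic lists kept a median below 0 in all settings. Same-numbered libraries showed no uniform pairing (correlations of deviations 0.348, 0.036 and -0.106). Pairs of unlike number ran from -0.249 to 0.201, and whether any libraries shared a litter was not tested. The block by replicate number gave 5051 calls at P14.5 and 645 in place of 977 for the difference between ages. The P10.5 calls (1576) ran from 499 to 2019 with a library left out, 499 without tg/tg replicate 3, 689 without Morc1tg/+ replicate 2 and 962 without Morc1tg/+ replicate 3, and those of the difference from 334 to 1377, 540, 334 and 482 without the same P10.5 libraries and 643 without P14.5 Morc1tg/+ replicate 3, a lone control being assumed to vary like the other groups. Among the 15 largest rises, Darc fell short without tg/tg replicate 2 or 3 or Morc1tg/+ replicate 1 or 3. Calls kept in every fit with 1 library left out were 16 of 25 for Sertoli, 11 of 20 for barrier, 7 of 10 for clearance, 5 of 11 for undifferentiated spermatogonia, 5 of 8 for Leydig and 2 of 9 for p53 genes, against 18 of 21 for the synaptonemal complex, 28 of 30 for recombination and 45 of 54 for axoneme genes. The cause was not tested.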
